A study of Mus musculus with 18 samples.

Results

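Heat shock proteins and J-domain proteins are the chaperones that bind unfolded stretches of other proteins and help them to fold, to be taken apart or to be degraded. Hsp70 proteins work in cycles of ATP binding and hydrolysis that J-domain proteins start and that Hsp110 proteins, as exchange factors, reset, and Hsp90 takes over part-folded clients such as kinases and steroid receptors. In neurons the same machinery uncoats clathrin vesicles and keeps synaptic proteins in shape, small heat shock proteins hold aggregating proteins without using ATP, and heat shock factors raise many of these genes when proteins misfold. The genes described here are those of the deposited table whose symbols begin with Hspa, Hspb, Hspd, Hspe, Hsph or Hsp90, or with Dnaja, Dnajb or Dnajc and a number, without pseudogenes and without Dnaja1, the farnesylated J-domain protein. The rule found 72 of 55487 genes and used no measured value.

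Frontal cortical RNA had been sequenced from 18 mice aged 9 to 10 months, 3 females and 3 males of each of 3 genotypes. APP/PS1 mice carried human transgenes that give amyloid pathology, among them APP with the Swedish mutations, and APP/PS1/FTnKO mice carried in addition a Cre driven by the CamKIIα promoter, which deletes a floxed exon of the farnesyltransferase β-subunit gene Fntb in forebrain neurons and not in other cells. Per the study, all 3 groups were homozygous for the floxed allele and the WT mice lacked Cre and the transgenes, while the record of the data calls the WT mice C57BL/6J, so their background is not settled. The total counts per mouse were 15925432 to 21030935. The RNA integrity number (RIN) was 8.5 to 8.8 for WT (median 8.7), 7.7 to 8.7 for APP/PS1 (median 8.2) and 7.6 to 8.7 for APP/PS1/FTnKO mice (median 8.6). Normalized Fntb was 7.84 to 14.66 CPM (counts scaled to a common library size by TMM) in APP/PS1/FTnKO and 14.23 to 32.08 in APP/PS1 mice (p = 0.0108 in a two-sided exact permutation test of log2 values, n = 6 each), counted over all cells and over the whole gene. In edgeR's quasi-likelihood test, described below, its log2 fold change was -0.77 (SE 0.26, FDR = 0.251). The APP/PS1 values were 14.23, 14.28, 14.55, 17.11, 28.67 and 32.08 CPM, and 5 WT mice had 14.14, 16.76, 16.94, 30.75 and 32.23. WT mouse 19622 lay apart: its excitatory cortical neuron markers summed to 427.7 CPM against 3077 to 6079 in the other 17 mice, and its cerebellar markers to 2440 against 91.14 to 140.9. Its chaperone values are therefore given separately, and the comparisons rest on the other 17 mice.

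Of the 72 genes, 65 had enough counts to be tested, among 17414 genes in all, and 58 averaged over 5 CPM. The other 7, namely Hspa1l, Hspb9, Dnajb7, Dnajb8, Dnajc5b, Dnajc5g and Dnajc22, had at most 143 counts over the 18 mice, and Dnajb8 had 0. Per kb of exon, the constitutive Hsp90 gene Hsp90ab1 stood highest with a mean level of 449.3 CPM per kb, followed by Hspa8, the constitutive Hsp70 that strips clathrin from vesicles, with 312 and by the inducible Hsp90 gene Hsp90aa1 with 166. The endoplasmic reticulum Hsp90 Hsp90b1 (60.1), the co-chaperone Dnaja2 (57.3), the synaptic vesicle protein Dnajc5 (54.4), the uncoating partner auxilin, Dnajc6 (50.3), the mitochondrial chaperonin Hspd1 (48.3) and the endoplasmic reticulum Hsp70 Hspa5 (48.0) formed the next tier on the same scale. These levels are means over genotypes, and neighbours in the tier differed by less than the spread of Hspa5 over mice. The stress-inducible Hsp70 genes Hspa1a and Hspa1b had 2.31 and 2.56 CPM per kb, far under Hspa8. All 8 small heat shock genes stayed at or under 5.46 CPM per kb, the level of Hspb1.

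**Figure D1:**
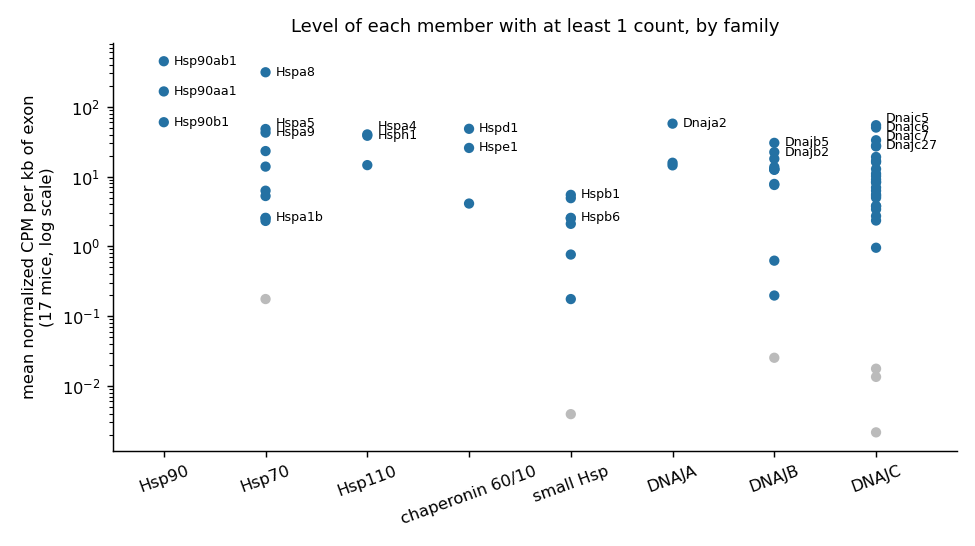
Mean level of each chaperone gene over 17 mice in normalized CPM per kb of exon (vertical axis, log scale), by family (horizontal axis). Blue points are tested genes and grey points are genes with too few counts; Hsp90ab1 (449.3) and Hspa8 (312) stand above all others.

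Within a genotype the spread between mice was small for most of the family. The coefficient of variation (SD over mean, averaged over the 3 genotypes) had a median of 8.95% over the 65 tested genes and was under 10% for 37 of them. It was lowest for Dnajc7 (3.21%), which binds Hsp70 and Hsp90 through its TPR domains, for the mitochondrial J-domain protein Dnaja3 (4.04%) and for Dnajc11 (4.21%) of the mitochondrial inner membrane organization. It was highest for Dnajb13 (48.5%), a gene of motile cilia, and Hspb7 (42.6%), a small heat shock gene of heart and muscle, both under 1 CPM, and for Hspa1b (39.0%).

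APP/PS1/FTnKO were set against APP/PS1 mice (called the knockout comparison) to ask what loss of farnesyltransferase in forebrain neurons changes on the background of amyloid pathology. The groups differ by the Cre as well, and no sequenced group had Cre without the deletion, so the Cre and the deletion cannot be told apart. By edgeR's quasi-likelihood test and Benjamini-Hochberg adjustment over all genes, 0 of the 65 chaperone genes passed the FDR threshold of 0.05, beside 0.327% of all genes. DESeq2 also called 0. Without adjustment 6 were higher and 5 lower at p below 0.05, beside 11.5% of all genes. The median log2 fold change of the 65 genes was -0.0022, and that of all tested genes was -0.0016. The 3 Hsp90 genes and the 3 Hsp110 genes all had negative log2 fold changes of -0.15 or smaller in size (without APP/PS1 mouse 19619 that of Hsph1 went from -0.15 to -0.045 and that of Hsp90ab1 from -0.097 to -0.043, and with RIN as a covariate that of Hsph1 was -0.23), and 17 of the 25 tested DNAJC genes had positive ones, with a median of 0.05. In bulk tissue fewer cells of a type and less RNA per cell cannot be told apart, here and in the results that follow.

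Hspa8 had the smallest p of the family in this comparison. Its normalized values were 1281 to 1649 CPM in APP/PS1/FTnKO mice (median 1544), 1038 to 1512 in APP/PS1 mice (median 1158), and 1194, 1215, 1304, 1382 and 1473 in WT mice. The APP/PS1/FTnKO mice lay mostly above the APP/PS1 mice, but APP/PS1 mouse 19619 lay above 3 of them. The log2 fold change was 0.33 (SE 0.094, n = 6 each) with FDR = 0.164 in edgeR's quasi-likelihood test. It was 0.41 (FDR = 0.0748) without mouse 19619, and with no filter on low counts the FDR of edgeR's test was 0.0474. With the filter, the FDR was 0.616 with WT mouse 19622 in the fit, 0.404 in mice with a RIN of at least 8 and 0.302 with the WT mice left out. Against WT mice the log2 fold change of Hspa8 was 0.20 (SE 0.10, edgeR's FDR = 0.243). A comparison with APP/PS1 mice and a comparison with WT mice share the APP/PS1/FTnKO mice, so these values are not independent.

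The next smallest p-values belonged to a set of J-domain genes and to Hspe1. Dnajc12, a co-chaperone of the aromatic amino acid hydroxylases, had 10.21 to 13.04 CPM in APP/PS1/FTnKO mice (median 11.09) and 8.406 to 10.35 in APP/PS1 mice (median 9.683), a log2 fold change equal to 0.26 (SE 0.078, edgeR's FDR = 0.196). The groups overlapped narrowly. Dnajc18, a transmembrane J-domain protein, and Dnaja2, a cytosolic partner of Hspa8 that like Dnaja1 can be farnesylated, had log2 fold changes of 0.13 (SE 0.043 and FDR = 0.246) and 0.15 (SE 0.052, edgeR's FDR = 0.277). For Dnajc18 the lowest APP/PS1/FTnKO value, 106.6 CPM, lay above the highest APP/PS1 value, 106.2. How many of all genes separate these groups in this way was not counted, and Dnajc18 was named for its small p. Hspe1, the chaperonin 10 that caps Hspd1 in mitochondria, had 35.22 to 37.47 CPM against 36.55 to 44.93, a log2 fold change equal to -0.13 (SE 0.050, edgeR's FDR = 0.304). Dnaja4, the remaining DNAJA protein with a farnesylation site, had a log2 fold change equal to -0.04 (SE 0.10 and FDR = 0.916), and 44.1% of its exon length overlaps Wdr61 on the other strand. None of these passed the threshold, which is no evidence of equal levels.

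APP/PS1 were set against WT mice (the transgene comparison) to ask what the transgenes change. It gave 1 chaperone gene past the threshold, Hspb6, higher in APP/PS1 mice, beside 1.5% of all genes called (1.32% higher). Without adjustment 4 were higher and 2 lower at p below 0.05, beside 14% of all genes. The median log2 fold change was -0.03 over the 65 genes and -0.0023 over all genes, and DESeq2 likewise called 1. Hspb6 (ENSMUSG00000036854, chromosome 7 from 30552178 to 30555443 on the plus strand of GRCm38) encodes Hsp20, a small heat shock protein known from muscle and astrocytes. Its normalized values were 3.222, 3.254, 3.353, 3.448 and 3.928 CPM in the 5 WT mice. In APP/PS1 mice they ran from 4.585 to 8.966 (median 7.976), and in APP/PS1/FTnKO mice from 4.505 to 8.445 (median 6.413). Every mouse with the transgenes lay above all 5 WT mice, and the lowest APP/PS1 values, 4.585 and 4.78, were those of the mice with RINs of 8.6 and 8.7, the highest of that genotype. The log2 fold change was 1.01 (SE 0.19, FDR = 0.00678, n = 6 and 5) in edgeR's quasi-likelihood test, and 0.92 to 1.11 with each mouse left out in turn, where the call held in 17 of 17 cases. WT mouse 19622 had 8.006 CPM, and with it the log2 fold change was 0.76 (FDR = 0.126, edgeR). With RIN as a covariate it was 0.66 (FDR = 0.0784, edgeR), so that the call rests on the choice of terms and mice.

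In APP/PS1/FTnKO against WT mice, Hspb6 was again higher, by a log2 fold change equal to 0.90 (SE 0.18, FDR = 0.0132, n = 6 and 5) in edgeR's quasi-likelihood test, and by 0.70 with RIN as a covariate (FDR = 0.0156). With WT mouse 19622 it was 0.66 (FDR = 0.122, edgeR). The call held in 15 of 17 cases with a mouse left out, the exceptions being WT mice 18944 and 19053, with FDRs of 0.0505 and 0.053. In the knockout comparison it differed by -0.11 (SE 0.17, edgeR's FDR = 0.859). Glial markers moved with the same genotypes. All 5 astrocyte markers had positive log2 fold changes in the transgene comparison, of which 1, Gfap, was called, and their summed level was 1699 to 1847 CPM in WT mice, while APP/PS1 mice had 2010 to 3533 and APP/PS1/FTnKO mice 1855 to 3130. All 5 markers of activated microglia were called, with sums of 19.64 to 23.47, 71.48 to 222.0 and 43.91 to 146.5 CPM in the same order. None of the markers in either list was at 0 in every mouse. The 4 endothelial markers gave 0 calls and sums of 201.4 to 241.0, 202.8 to 271.2 and 166.0 to 272.6 CPM. The part of these cells in the Hspb6 result was not tested. A stretch of 5.3% of the exon length of Hspb6 overlaps Proser3 on the other strand.

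**Figure D2:**
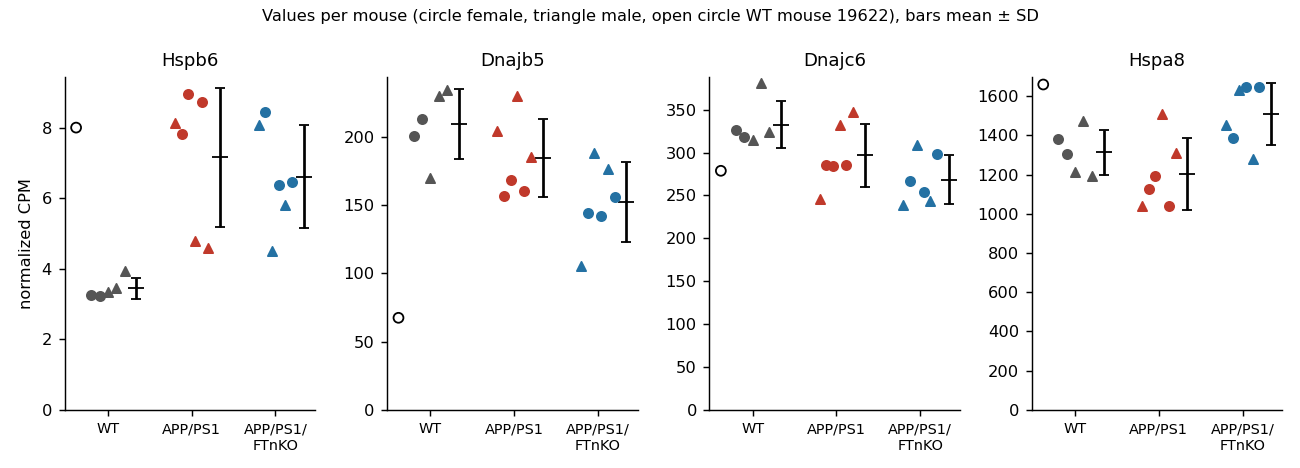
Normalized CPM per mouse (vertical axes, from 0) of Hspb6, Dnajb5, Dnajc6 and Hspa8 by genotype (horizontal axes); circles are females, triangles males, bars mean ± SD of the 17 mice, and the open circle is WT mouse 19622, on a scaling of 18 mice. The Hspb6 values of the 5 WT mice, 3.222 to 3.928, lie under every value of the mice with the transgenes.

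The other small heat shock genes did not pass the threshold in the transgene comparison. Hspb8, which works with Bag3 in selective autophagy, had 5.324, 6.093, 7.680, 8.555 and 9.196 CPM in WT mice and 5.643 to 16.68 (median 10.43) in APP/PS1 mice. Its groups overlapped, and the log2 fold change was 0.50 (SE 0.22, edgeR's FDR = 0.331), and 0.032 with WT mouse 19622. Among the other genes of smallest p, Dnajb14, an endoplasmic reticulum J-domain protein, had a log2 fold change equal to -0.15 (SE 0.062 and FDR = 0.306), the endothelial Hsp70 relative Hspa12b 0.30 (SE 0.13 and FDR = 0.312) and the Hsp110 gene Hspa4 -0.18 (SE 0.080, edgeR's FDR = 0.323). With RIN as a covariate these log2 fold changes were -0.094 for Dnajb14, 0.11 for Hspa12b and -0.068 for Hspa4.

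APP/PS1/FTnKO were also set against WT mice (the combined comparison), from which they differ by the transgenes, the Cre and the deletion together. Here 2 chaperone genes were called, Hspb6 higher and Dnajb5 lower, beside 3.87% of all genes. The background was 2.22% higher and 1.65% lower. Without adjustment 6 were higher and 10 lower at p below 0.05, beside 22.1% of all genes, and the median log2 fold change was -0.02 against 0.0053 over all genes. Dnajb5 (chromosome 4 from 42949814 to 42959425) encodes Hsc40, a cytosolic J-domain partner of Hsp70. It had 169.8, 200.4, 213.3, 229.6 and 234.1 CPM in WT mice, while APP/PS1 mice had 156.9 to 230.2 (median 176.9) and APP/PS1/FTnKO mice 105.1 to 188.5 (median 150.2). The APP/PS1/FTnKO mice lay lowest as a group, but 2 of them lay above the lowest WT mouse. The log2 fold change against WT was -0.45 (SE 0.12, FDR = 0.0484, n = 6 and 5) in edgeR's quasi-likelihood test. It held in 5 of the 17 cases with a mouse left out and was -0.34 to -0.53 over them, -0.35 with RIN as a covariate (FDR = 0.079) and -0.27 with WT mouse 19622 (FDR = 0.508), which had 67.37 CPM. Against APP/PS1 mice it was -0.27 (SE 0.12, edgeR's FDR = 0.379), with -0.17 without APP/PS1/FTnKO mouse 16974, -0.16 in mice with a RIN of at least 8 and -0.38 with RIN as a covariate.

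DESeq2 called 4 chaperone genes in this comparison, Dnajc6 and Dnajc14 besides the pair above, and 1304 genes in all, where edgeR called 674. Dnajc6, the neuronal auxilin that recruits Hspa8 to clathrin coats, had 314.6, 318.5, 323.8, 325.9 and 381.0 CPM in WT and 239.2 to 308.6 (median 260.3) in APP/PS1/FTnKO mice. These groups did not overlap, and the APP/PS1 mice, with 246.2 to 347.1 (median 285.4), overlapped both. How many of all genes separate WT from APP/PS1/FTnKO mice was not counted, and Dnajc6 was named for its small p. The log2 fold change against WT was -0.30 (SE 0.088), with FDR = 0.0603 in edgeR's test and 0.0215 in DESeq2's. In edgeR's test it passed with no filter on low counts (FDR = 0.0175) and with the APP/PS1 mice left out of the fit (FDR = 0.0419), and it had FDR = 0.101 with RIN as a covariate. Dnajc14, an endoplasmic reticulum membrane protein that binds the dopamine D1 receptor, had a log2 fold change equal to -0.17 (SE 0.052, FDR = 0.0701, edgeR, and 0.0333 in DESeq2), and about 17% of its exon length overlaps Ormdl2 on the other strand. Dnajc19, of the mitochondrial import motor, had 0.24 (SE 0.087, edgeR's FDR = 0.116), and 0.16 with WT mouse 19622. Of the 6 genes of synaptic and endosomal trafficking (Dnajc5, Dnajc6, Dnajc13, Dnajc27, Hspa12a, Dnajb2), 5 had negative log2 fold changes, with a median of -0.12. edgeR's test called 0 of the 6, with 3 lower at an unadjusted p below 0.05 beside 1890 of all 17414 genes, whereas DESeq2 called Dnajc6. In the transgene comparison 6 of the 6 were negative (median -0.11), and in the knockout comparison 3 were (median -0.02). The list, chosen with earlier results of these data known, leaves out Hspa8, which had 0.20 in the combined comparison. Dnajc5, the cysteine string protein of synaptic vesicles, had 386.0 to 415.4 CPM in WT and 340.6 to 396.6 in APP/PS1/FTnKO mice, a log2 fold change equal to -0.14 (SE 0.057, edgeR's FDR = 0.157), and -0.093 with RIN as a covariate. The summed level of the 5 excitatory cortical neuron markers was 4342 to 6079 CPM in WT mice, while APP/PS1 mice had 3748 to 5880 and APP/PS1/FTnKO mice 3077 to 4818. All 5 had negative log2 fold changes in the combined comparison, and 1, Slc17a7, was called. Their part in the values of Dnajb5, Dnajc6 and Dnajc5 was not tested.

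**Figure D3:**
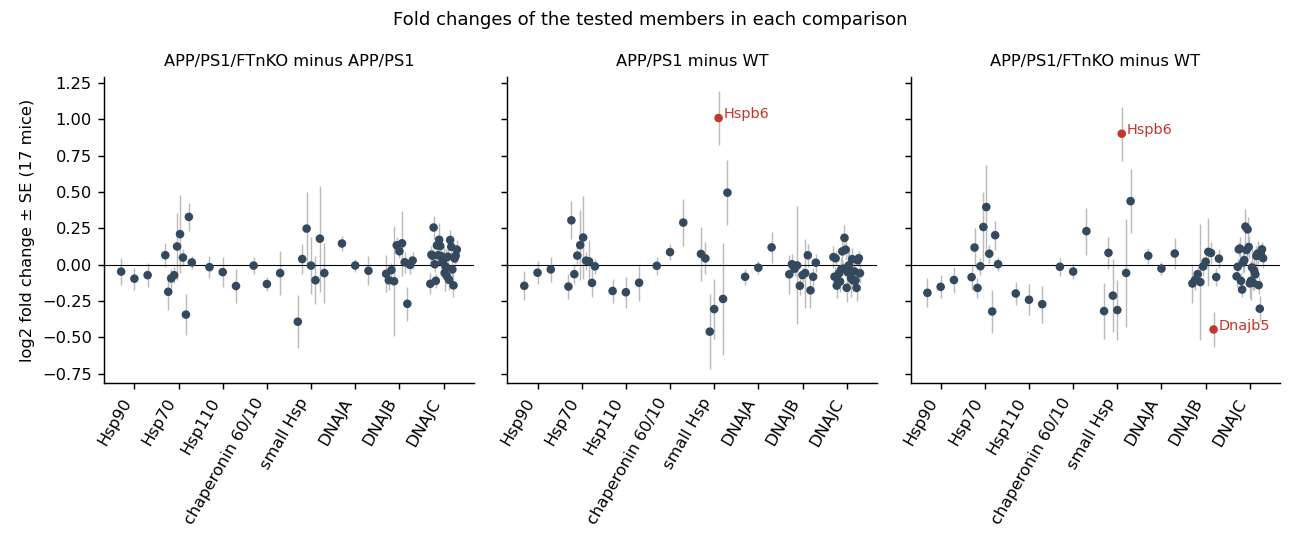
Log2 fold change ± SE (vertical axis) of the 65 tested chaperone genes, by family (horizontal axis), in the 3 comparisons of the 17 mice. Red points passed an FDR of 0.05 in edgeR's test: 0, 1 and 2 genes from left to right.

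The 15 heat-inducible genes of the family are known to respond to heat shock factor 1. In the knockout comparison 11 of the 15 had negative log2 fold changes (median -0.05) and edgeR's test called 0, and in the transgene comparison 9 were negative (median -0.06) and it called 0. In the combined comparison 10 were negative (median -0.13) and 1, Dnajb5, was called. Over all genes 0.327%, 1.5% and 3.87% were called in the 3 comparisons. The 3 Hsp110 genes had log2 fold changes of -0.20 (Hspa4), -0.24 (Hspa4l) and -0.27 (Hsph1) in the combined comparison, each with an unadjusted p below 0.05, as had 22.1% of all genes, and an FDR of 0.156 or more in edgeR's test. With RIN as a covariate the values were -0.13, -0.18 and -0.15 in the same order, with unadjusted p = 0.0678, 0.109 and 0.127 in edgeR's test. With WT mouse 19622 they were -0.22, -0.45 and -0.18. Hsp90ab1 had -0.15 (SE 0.080) and Hsp90aa1 -0.19 (SE 0.10) in that comparison, with FDRs of 0.273 and 0.266 (edgeR), and -0.086 and -0.11 with RIN as a covariate. Dnajb1, whose protein drives the disaggregating work of Hsp70, had 51.93 to 75.56 CPM in WT mice, while APP/PS1 mice had 45.95 to 82.61 and APP/PS1/FTnKO mice 46.43 to 63.18, and the groups overlapped throughout.

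APP/PS1 mouse 19619 was the highest of its genotype for 13 of the 15 heat-inducible genes, and WT mouse 19718 was the highest of the 5 WT mice for 13 of the 15. WT mouse 19101 (RIN 8.5) was the lowest for 12, APP/PS1 mouse 16975 (RIN 7.7) for 10 and APP/PS1/FTnKO mouse 19720 (RIN 8.6) for 8. APP/PS1/FTnKO mouse 16974, with the lowest RIN of its genotype (7.6), was the lowest for 3. Over all 65 tested chaperone genes mouse 19619 was the highest for 24 and mouse 19718 for 31, and the lowest were mouse 19101 for 27, mouse 16975 for 33 and mouse 19720 for 25. How often each mouse was the highest or lowest over all tested genes was not counted, and genes that covary are not separate observations. Hspa1b, the stress-inducible Hsp70, reached 16.93 CPM in mouse 19619 against 4.098 to 6.348 in the other APP/PS1 mice, and 9.995 in mouse 19718 against 4.572 to 5.975 in the other WT mice. Its near-identical copy Hspa1a had 13.61 CPM in mouse 19619 and 9.295 in mouse 19718. How the authors' counting treated reads that both copies share was not given in the sources used, and 19.0% of the exon length of Hspa1a overlaps Gm20481 on the other strand. With the counts of both copies summed, the log2 fold change was 0.17 (SE 0.24 and FDR = 0.845) in the knockout comparison and 0.16 (SE 0.26, edgeR's FDR = 0.821) in the transgene comparison. For Hspa1b alone the latter was 0.19 and turned to -0.25 without mouse 19619. Its log2 fold change in the knockout comparison went from 0.21 to 0.61 without that mouse (unadjusted p = 0.00371, edgeR's FDR = 0.209), and was -0.030 in mice with a RIN of at least 8. Hspb1, the small heat shock protein of actin and microtubule protection, had 10.18 CPM in mouse 19619 and 4.757 to 6.107 in the other APP/PS1 mice. Its log2 fold change in the knockout comparison was -0.39 (SE 0.18 and FDR = 0.417) with that mouse and -0.21 (FDR = 0.711, edgeR) without it.

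**Figure D4:**
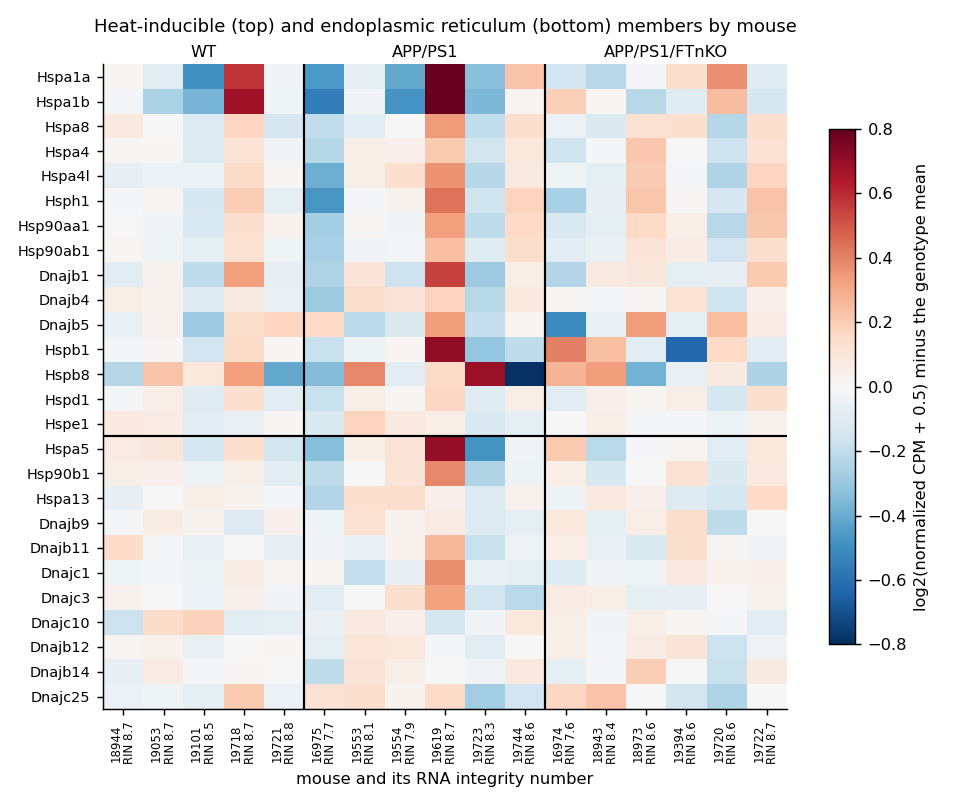
Log2(normalized CPM + 0.5) minus the mean of the mouse's genotype (colour, which saturates at 0.8 in either direction) for 15 heat-inducible genes (top) and 11 endoplasmic reticulum genes (bottom) in 17 mice (columns, with RIN). The red columns of WT mouse 19718 and APP/PS1 mouse 19619, highest for 13 of 15 heat-inducible genes each, stand out within their genotypes. The same was not counted over all genes.

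Pairs of genes known to be induced together were compared across the 17 mice after genotype and sex had been removed from log2 CPM, with 100000 permutations and Benjamini-Hochberg adjustment over 8 relations. Hsph1, an Hsp110, and Dnajb1 covaried, with Pearson's r = 0.86 (permutation p = 1e-05, the smallest these permutations can give, adjusted p = 2e-05) and Spearman's rho = 0.80 (adjusted p = 0.00043). Without the 2 mice farthest from the median of Hsph1, r was 0.79. Hsph1 and Hspa8 had r = 0.86 (rho = 0.85, permutation p = 1e-05, adjusted p = 2e-05), and 0.80 without the 2 farthest mice. With WT mouse 19622 that r was 0.39 (permutation p = 0.109, adjusted p = 0.109), whereas rho was 0.57 (adjusted p = 0.0194) and r without the 2 farthest mice, 19622 among them, was 0.78. Hspa1a and Hspa1b had r = 0.92 (rho = 0.79, permutation p = 1e-05, adjusted p = 2e-05), and 0.80 without the 2 farthest mice, as copies that may share reads. RNA quality moved with part of this: RIN and Hsph1 had r = 0.74 (permutation p = 0.0008, adjusted p = 0.00107) and rho = 0.62 (adjusted p = 0.0131), and r = 0.61 without the 2 mice farthest in RIN. RIN and Hspa1b had r = 0.45 (rho = 0.26, permutation p = 0.077, adjusted p = 0.088), and 0.47 without the 2 farthest. With RIN removed as well, the r of Hsph1 with Dnajb1 was 0.75 and with Hspa8 0.85.

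The endoplasmic reticulum members fold secreted and membrane proteins. Hspa5 (BiP), the Hsp70 that holds the unfolded protein sensors inactive, had 195.7, 196.3, 227.0, 230.9 and 237.7 CPM in WT mice, while APP/PS1 mice had 152.6 to 345.9 (median 213.7) and APP/PS1/FTnKO mice 148.3 to 199.5 (median 173.2). The 345.9 was that of mouse 19619, and the next APP/PS1 value was 228.4. The log2 fold change of Hspa5 in the knockout comparison was -0.34 (SE 0.14, edgeR's FDR = 0.362) and -0.17 (FDR = 0.611) without that mouse. Against WT it was -0.32 (SE 0.15, edgeR's FDR = 0.215), and -0.33 (FDR = 0.0349) with the APP/PS1 mice, 19619 among them, left out of the fit. Across the 17 mice Hspa5 and Hsp90b1 (Grp94) had r = 0.97 (permutation p = 1e-05, adjusted p = 2e-05) and rho = 0.89, and r = 0.91 without the 2 mice farthest in Hspa5. Hspa5 and Dnajb11, its J-domain partner, had r = 0.79 (permutation p = 0.00031, adjusted p = 0.000496) and rho = 0.71, and r = 0.46 without the 2 farthest mice, so that this relation rests largely on mice 19619 and 19723. Of 11 endoplasmic reticulum genes (Hspa5, Hsp90b1, Hspa13, Dnajb9, Dnajb11, Dnajc1, Dnajc3, Dnajc10, Dnajb12, Dnajb14 and Dnajc25, a list without Dnajc14), 8 had negative log2 fold changes in the knockout comparison (median -0.07), 6 in the transgene comparison (median -0.0049) and 10 in the combined comparison (median -0.07). edgeR's test over 17 mice called 0 of the 11 in each comparison, with 2, 1 and 2 at an unadjusted p below 0.05 in that order, beside 11.5%, 14% and 22.1% of all genes. Mouse 19619 was the highest APP/PS1 mouse for 6 of the 11, a share that was not counted over all genes. Of 16 tested further endoplasmic reticulum genes outside the family, such as Calr, Canx and Pdia4, 15 had negative log2 fold changes in the knockout comparison (median -0.09), 4 in the transgene comparison (median 0.013) and 11 in the combined comparison (median -0.07), and edgeR's test called 0 in each. Of all 17414 genes, 8797, 8810 and 8480 were negative. With WT mouse 19622 in the fit the medians of the 16 were -0.09, -0.03 and -0.13 in the knockout, transgene and combined comparisons. Those of the 11 were -0.08, -0.08 and -0.10.

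**Figure D5:**
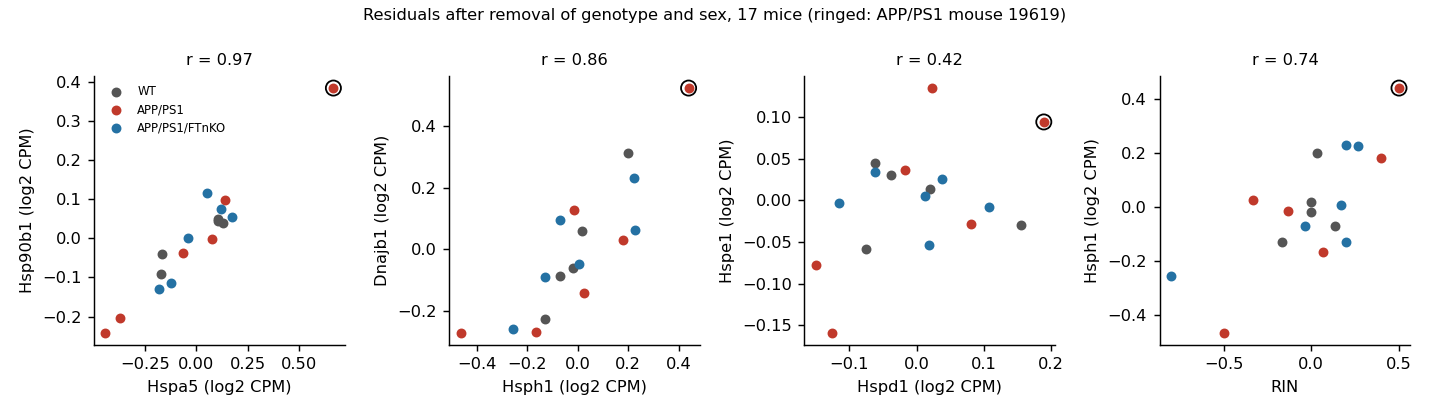
Residuals of log2 CPM or RIN after removal of genotype and sex in 17 mice (points, coloured by genotype, with APP/PS1 mouse 19619 ringed) for Hspa5 and Hsp90b1, Hsph1 and Dnajb1, Hspd1 and Hspe1, and RIN and Hsph1. The points lie close to a line for Hspa5 and Hsp90b1 (r = 0.97) and are scattered for Hspd1 and Hspe1 (r = 0.42).

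The promoters of Hspa5 and Hsp90b1 share letters that most promoters lack, and so does that of Dnajc3, whose covariation with them was not computed. RefSeq start sites on GRCm38.p6 were available for 57 of the 72 genes, as windows of 250 bases before to 50 bases after each start. The endoplasmic reticulum stress element, searched on both strands as CCAAT and CCACG with 9 bases of any kind between them, was found in 3 of the 57 genes (5.26%), Hspa5, Hsp90b1 and Dnajc3, against 0.137% of all 27025 genes with a window. Dnajc3 encodes p58IPK, which binds unfolded proteins in the same compartment. The matches are shown in capitals with 20 bases on each side, read 5′ to 3′ on the strand of the gene.
Hspa5, chr2:34772005-34772063, plus strand, match at -65 to -47: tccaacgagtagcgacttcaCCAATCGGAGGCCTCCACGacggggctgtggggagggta
Hsp90b1, chr10:86705618-86705676, minus strand, match at -212 to -194: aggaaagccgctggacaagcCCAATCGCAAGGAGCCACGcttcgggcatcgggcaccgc
Hsp90b1, chr10:86705513-86705571, minus strand, match on the other strand at -107 to -89: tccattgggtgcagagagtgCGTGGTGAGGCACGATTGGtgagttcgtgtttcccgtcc
Dnajc3, chr14:118937807-118937865, plus strand, match at -105 to -87: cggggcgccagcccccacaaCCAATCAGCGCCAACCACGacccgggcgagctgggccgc

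Positions count back from the start, with -1 next to it. The window of Dnajb11 holds no match to the whole motif. A match is a description of sequence, was not measured as bound, and its part in any covariation was not tested.

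The mitochondrial chaperonin genes Hspd1 and Hspe1 lie head to head on chromosome 1 and share a promoter. Hspd1 had 119.5 to 140.4 CPM in WT mice, while APP/PS1 mice had 112.6 to 142.7 and APP/PS1/FTnKO mice 115.1 to 139.3, which overlapped throughout. Across the 17 mice the residuals of the pair had r = 0.42 (permutation p = 0.0947, adjusted p = 0.0947) and rho = 0.32, and r = 0.19 without the 2 mice farthest in Hspd1. With WT mouse 19622, r was 0.56 (permutation adjusted p = 0.022), rho was 0.46 (adjusted p = 0.0656) and r without the 2 farthest mice was 0.29. Of the 10 mitochondrial genes, 7 had positive log2 fold changes in the knockout comparison (median 0.06), 3 in the transgene comparison and 6 in the combined comparison. edgeR's test called 0 of the 10 in each, with 2, 1 and 2 at an unadjusted p below 0.05 in that order, where 11.5%, 14% and 22.1% of all genes were.

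Heat shock elements, searched on both strands as GAA, TTC and GAA with 2 bases of any kind between neighbours, were found in the windows of 4 of the 57 genes (7.02%), Hspd1, Hspe1, Dnajb6 and Hsph1, against 0.662% of all genes. The shorter parts of the motif were more common, with GAANNTTC in 22.8% of the 57 genes and 9.04% of all genes and TTCNNGAA in 10.5% and 9.6%. The shared promoter of the chaperonin pair holds 2 overlapping matches, in capitals below on the strand of Hspe1, at -89 to -72 from its start and at -144 to -127 from the start of Hspd1 on the opposite strand.
Hspe1 and Hspd1, chr1:55088039-55088096, plus strand: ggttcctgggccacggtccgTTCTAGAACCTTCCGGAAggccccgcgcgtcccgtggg

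Dnajb6, an inhibitor of polyglutamine and amyloid fibril growth, holds 1 match in 2 overlapping windows of its own promoter. The match of Hsph1 lies after the start, at 16 to 28 in 1 of its windows. Dnajb6 and Hspd1 were called in 0 of the 3 comparisons.

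Among the partners and regulators of the family, 1 gene of the heat shock factor group was called. Hsf4, which encodes heat shock factor 4, was at 20.303 to 24.89 CPM in the knockout group, and at 14.228 to 18.625 for APP/PS1 and 13.044 to 16.192 for WT mice. The APP/PS1/FTnKO mice lay above every mouse of the other groups, with log2 fold changes of 0.52 (SE 0.084 and FDR = 0.0126) against APP/PS1 and 0.63 (SE 0.089 and FDR = 0.00133) against WT mice in edgeR's test. With WT mouse 19622 in the fit the FDR of the first was 0.129, and with the WT mice left out it was 0.0516. Hsf1, the main regulator of heat-inducible genes, had 0.09 (SE 0.060 and FDR = 0.63) and 0.14 (SE 0.063, edgeR's FDR = 0.212). Of 32 cochaperones of Hsp70 and Hsp90, Fkbp5, which restrains the glucocorticoid receptor, was lower in the knockout comparison, with a log2 fold change equal to -0.50 (SE 0.096, edgeR's FDR = 0.0356). Its FDR was 0.594 with WT mouse 19622, 0.0634 without the WT mice and 0.192 in mice with a RIN of at least 8, and the call held in 9 of 17 cases with a mouse left out. The Hsp90 cochaperone Ttc4 rose in the combined comparison, by 0.25 (SE 0.066, edgeR's FDR = 0.0414). This call was lost with RIN as a covariate (FDR = 0.0898), with WT mouse 19622 (0.0718), without the APP/PS1 mice (0.0555) and in mice with a RIN of at least 8 (0.0957), and held in 8 of 17 cases with a mouse left out. In the knockout comparison Ttc4 had 0.24 (FDR = 0.107, edgeR), with FDR = 0.0297 in DESeq2 and 0.0405 in edgeR with RIN as a covariate. Timm44, which docks mitochondrial Hsp70 at the import channel, rose in the combined comparison by 0.27 (SE 0.071, edgeR's FDR = 0.0458), a call that was lost with RIN as a covariate (FDR = 0.0799) and in mice with a RIN of at least 8 (0.0625) and held in 8 of 17 cases with a mouse left out. Of 12 further heat-inducible genes, Hmox1, heme oxygenase 1, rose in the transgene comparison by 0.85 (SE 0.15, edgeR's FDR = 0.00411, and 0.0677 with RIN as a covariate). The 8 subunits of the cytosolic chaperonin TRiC all had negative log2 fold changes in the knockout comparison (median -0.07) and in the combined comparison (median -0.05), and 3 of them had negative ones in the transgene comparison (median 0.018). edgeR's test called 0 in each, with 2 in the knockout comparison and 0 in the others at an unadjusted p below 0.05, beside 11.5%, 22.1% and 14% of all genes in the knockout, combined and transgene comparisons. With WT mouse 19622 in the fit the medians of the 8 subunits were -0.07, -0.09 and -0.0097 in the same order. The cold-shock gene Rbm3 had 0.33 (SE 0.083, edgeR's FDR = 0.0582, and 0.0128 in DESeq2) in the transgene comparison. Its FDR in edgeR was 0.415 with RIN as a covariate, 0.153 with WT mouse 19622 and 0.296 in mice with a RIN of at least 8. It passed the threshold in 3 of 17 cases with a mouse left out.

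Sex was part of each comparison. 0 of the 65 chaperone genes were called between females and males, beside 0.0689% of all genes, and 2 had an unadjusted p below 0.05 in edgeR's test, beside 6.7% of all genes. The test of a difference between the sexes called 0 in APP/PS1/FTnKO against APP/PS1 and 0 in APP/PS1 against WT mice, with 1 and 0 at an unadjusted p below 0.05, beside 3.32% and 4.05% of all genes.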

How the data were processed

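Poly(A) libraries that keep strand were made from frontal cortical RNA of 18 mice. Read trimming (Trimmomatic 0.33), alignment to GRCm38 (HISAT2 2.1.0) and counting per gene (featureCounts) were done by the authors, who deposited raw counts without normalization. The featureCounts version, annotation, strand and multi-mapping settings were not given in the sources used. Members overlapping a gene on the other strand, and near-identical copies, are therefore uncertain.

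Genes passing filterByExpr (minimum count 10) were tested by edgeR 4.0.16 under R 4.3.3: TMM scaling, 3 genotypes in 1 fit, sex as a term, quasi-likelihood F test (SE as the fold change over the root of F), Benjamini-Hochberg adjustment over all genes and an FDR threshold of 0.05. WT mouse 19622 was left out. DESeq2 1.42.0 was an alternative. Replicates are separate mice. On simulated counts for APP/PS1/FTnKO against APP/PS1 (17227 genes), edgeR recovered 96% of changes of 1 and 73% of changes of 0.5 on the log2 scale, with 6.11% of its calls false, and DESeq2 98% and 81% with 11.4% false (17414 genes). The simulation drew each gene independently and changed no gene of very low level. It held no RIN difference and no outlying mouse, so these rates need not hold in the data. At 15925432 to 21030935 counts per mouse, counting error weighs most on the genes with the fewest counts.

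Named are the members called in any comparison, the 5 of smallest p in each, fixed chaperones of known role, and those highest, lowest, most and least variable. Partner genes were named where called or of small p, some of them after their values were seen, and 1 such gene is not reported here. The members, lists and pairs were chosen with earlier results of these data known. The alternatives were all 18 mice, DESeq2, RLE scaling, no filter, a minimum count of 50, no sex term, a RIN covariate, leaving out mice with a RIN under 8, fitting the compared genotypes alone, and dropping each mouse in turn. DESeq2 on all 18 mice, and RIN removed from the pairs, were added after the data had been seen. Gene positions came from a GRCm38 annotation. The deposited table has 0 unused sample columns.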

Additional observations from a re-analysis of the deposited data

Results flagged for a closer look

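Of 87 groups of mice examined, 1 for each named member and genotype, 6 held a mouse whose value stood far from the others of its genotype. Chance gives about 1 in 20 groups, a rate that does not apply to members named for a large spread, such as Hspa1b and Hspb7, which hold 3 of the 6. Mouse 19619 of the APP/PS1 group stood apart 3 times, with 13.61 CPM of Hspa1a (next highest 7.524), 16.93 CPM of Hspa1b (next 6.348) and 10.18 CPM of Hspb1 (next 6.107). WT mouse 19718 stood apart for Hspa1b, with 9.995 CPM (next 5.975), and for Dnajc6, with 381.0 CPM (next 325.9). APP/PS1 mouse 19554 had 0.7755 CPM of Hspb7 (next 0.4477), a gene with few counts. Hspa1a and Hspa1b are near-identical copies, and how reads matching both were counted was not given, so their values cannot be taken as separate observations.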

How the results depend on the processing

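A set of 52 fold changes was recomputed under the alternatives, those of Hspa1a and Hspa1b summed with all 18 mice only. Of the 1326 recomputed values, 1228 kept their direction and their side of the threshold, 74 lost and 20 gained the call, and 4 turned. The 4 were Hspa1b in APP/PS1 against WT, at -0.25 without APP/PS1 mouse 19619 (range -0.25 to 0.36 with each mouse left out in turn), Hspa1b in APP/PS1/FTnKO against APP/PS1 (the knockout comparison), at -0.030 in mice with a RIN of at least 8, Dnaja4 in the knockout comparison, at 0.0085 without mouse 19619 (range -0.10 to 0.0085), and Hspb6 in the knockout comparison, at 0.038 with RIN as a covariate. The cause was not tested. In the knockout comparison edgeR called 0 chaperone genes with any mouse left out (0 to 0) and 1, Hspa8, with no filter. Between APP/PS1 and WT mice it called 0 with all 18 mice and 0 with RIN as a covariate, and 1 with any mouse left out, and DESeq2 on all 18 mice called 1. Between APP/PS1/FTnKO and WT mice it called 0 with all 18 mice, 1 with RIN as a covariate, 1 in mice with a RIN of at least 8, and 0 to 4 with a mouse left out, being 0 without WT mouse 18944 or 19053 and 4 without APP/PS1/FTnKO mouse 19722. DESeq2 called 4 there, and 0 on all 18 mice. The count over all genes moved too: there it was 674, and 261 with 18 mice, 388 with RIN as a covariate, 368 in mice with a RIN of at least 8, 232 or 206 without WT mouse 18944 or 19053, 826 without mouse 19722 and 1304 in DESeq2. Between APP/PS1 and WT mice it was 261, and 207 with 18 mice, 84 with RIN as a covariate and 457 in DESeq2. In the knockout comparison it was 57, and 2 with 18 mice, 5 with the WT mice left out, 14 in mice with a RIN of at least 8, 104 with no filter, 244 in DESeq2 and 261 with RIN as a covariate. With a mouse left out it ran from 10 (without APP/PS1 mouse 19554) to 81 (without 16975) in the knockout comparison, from 124 (19053 left out) to 465 (19744 left out) between APP/PS1 and WT mice, and from 206 (19053 left out) to 987 (18973 left out) between APP/PS1/FTnKO and WT mice. With all 18 mice the r of Hsph1 and Hspa8 fell to 0.39, while rho (0.57) kept the call, and that of Hspd1 and Hspe1 rose to 0.56, past the threshold, which rho (0.46) did not pass. No paired analysis was possible because the replicate numbers follow the order of the samples and no label ties mice across genotypes. Depth limits the precision of genes with few counts, and 4 of those tested averaged under 1 CPM.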

Other observations

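WT mouse 19622, which enters only those values above that are said to include it, stood apart in many chaperone genes, as it did over all genes. On a common scaling of 18 mice, it was above every other mouse for 25 of the 65 tested chaperone genes, beside 28.6% of all 17285 genes, and below every other mouse for 11, beside 26.8%. It lay outside the range of the other 5 WT mice for 49 of the 65 (75.4%), beside 73.8% of all genes. Hspb8 stood at 27.14 CPM, where the other 17 mice had 5.33 to 16.7, and Hspa4l at 373.5 CPM, where they had 126.1 to 212.8. Dnajb5 stood at 67.37 CPM, where they had 105.4 to 234.3, and Hsph1 at 193.8 CPM, where they had 200.4 to 375.6. The log2 difference from the mean of the other WT mice was 1.81 for Hspb8, 0.97 for Hspa4l, -1.63 for Dnajb5 and -0.66 for Hsph1. Its RIN was 8.6, within the range of the WT mice. The labels give the tissue of this mouse as frontal cortex, and its markers of cerebellum (2440 CPM) and choroid plexus (1335 CPM) were above those of all other mice. Their part in its chaperone values was not tested.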
